A study of Mus with 9 samples.

Results

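Bone marrow cells carrying cyclin D2 with alanine in place of threonine 280 (CCND2mut) were compared with bone marrow cells carrying unaltered cyclin D2 (CCND2wt), gene by gene across the whole RNA sequencing count table. The comparison used 6 of the 9 libraries of the series, which were taken by their group labels alone: libraries 1, 2 and 3 of CCND2mut and libraries 2, 3 and 4 of CCND2wt. The other 3 libraries, labelled Vec, carried the empty retroviral vector. They entered the scaling, the estimate of the spread between libraries and the filter on low counts that sets which genes are tested. In every group the cells came from fetal livers of embryonic day 12.5 of a conditional knock-in mouse that makes AML1-ETO, the RUNX1-RUNX1T1 fusion protein of acute myeloid leukaemia, tagged with mCherry. Both cyclin groups and the vector group therefore share AML1-ETO, and the submitters describe the knock-in as a pre-leukaemic, myeloproliferative model. The fetal liver cells were infected with the MSCV-IRES-EGFP retrovirus, empty or with a cyclin D2 coding sequence, and 100000 cells positive for mCherry and GFP went, with supportive cells, into C57BL/6 recipients after lethal irradiation. The sequenced material is labelled bone marrow cells. A sort of the marrow for GFP or mCherry before sequencing is not stated in the sources used here, so host and supportive cells may be included. The age of the recipients at harvest, the promoter that switched AML1-ETO on and the species of the cyclin D2 sequence are not given there either. Whether each library came from its own animal is not stated in the labels, so p-values measure the spread between these libraries, which may be technical.

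Cyclin D2 is 1 of 3 D-type cyclins. They bind the kinases CDK4 and CDK6 and phosphorylate the retinoblastoma protein, which releases E2F transcription factors and lets a cell pass from G1 into S phase. Phosphorylation of a conserved C-terminal threonine, Thr280 in cyclin D2, marks the protein for nuclear export, ubiquitination and degradation, and its loss stabilises the protein. Mutations at this threonine and beside it occur in acute myeloid leukaemia with AML1-ETO. In AML1-ETO leukaemia, progenitors stop maturing in the granulocyte series, because the fusion keeps DNA binding by RUNX1 but recruits corepressors in its place.

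Library totals ran from 15043755 to 17593634 counts over all 9 libraries. Levels are given library by library as CPM, counts scaled to the library total and by TMM factors, and differences as log2 fold changes of CCND2mut over CCND2wt with a standard error (SE) and a Benjamini-Hochberg adjusted p from edgeR. A rise or fall by a single number is a log2 fold change. The 3 CCND2wt libraries lay very close together: between pairs of them, 35 to 133 genes were over 2-fold apart, against 1000 to 1904 between pairs of CCND2mut libraries. Their chi-square of counts per gene, 7.15 to 18.8, was above that of pure counting noise, and whether they are repeats of 1 sample was not tested. Counts of genes were for this reason also computed with the 3 libraries added up into 1 sample. In brackets after a list's counts, the word summed marks the numbers that rose and fell under that setting. Sex-linked genes also differed between the groups. Xist, which coats the inactive X, stood at 2276, 2111 and 2305 CPM in CCND2wt and at 4.31, 11.8 and 4.91 CPM in CCND2mut, while the Y-linked Ddx3y stood at 0.635, 0.623 and 0.605 CPM in CCND2wt and at 27.4, 0 and 0 CPM in CCND2mut. Sex-linked expression and the cyclin D2 form cannot be told apart in these libraries, and without the genes of chromosomes X and Y 7096 genes passed the test given below. In bulk RNA, fewer cells of a type and less RNA per cell cannot be told apart either, and this holds for every result that follows.

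Markers of blood and of the myeloid line were present in each library. The pan-leukocyte gene Ptprc (CD45) stood at 239, 247 and 237 CPM in CCND2wt and at 285, 365 and 191 CPM in CCND2mut. Mpo, the myeloperoxidase of promyelocyte granules, stood at 1272, 1152 and 1006 CPM and at 3514, 1712 and 1227 CPM (log2 fold change 0.91, adjusted p = 0.0582), a difference that missed the threshold. Haemoglobin genes took at most 0.131% of counts and immunoglobulin genes at most 0.0441% in any of the 6 libraries.

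The gene that the retroviruses carry was measured first, and its counts do not check the labels. Ccnd2 (chromosome 6, 127125162 to 127152193) stood at 7.3, 9.29 and 11.1 CPM in the CCND2wt libraries, by label, and 12.6, 58.2 and 51.1 CPM in the CCND2mut libraries. All 3 CCND2mut values lay above all 3 CCND2wt values (log2 fold change 2.14, SE 0.47, adjusted p = 0.0072), and the Vec libraries, with no cyclin D2 in the virus, were higher than every library of both groups, at 76.2, 79 and 86.2 CPM. Reads of a transgene count here only where its sequence matches the mouse gene model. The adjusted p of Ccnd2 was 0.146 with the CCND2wt libraries summed. Cyclin D1 (Ccnd1) was low in both groups, at 1.8, 1.87 and 1.32 CPM in CCND2wt and 0.971, 1.0 and 0.731 CPM in CCND2mut (log2 fold change -0.88, SE 0.29, adjusted p = 0.0355). This call ended with the CCND2wt libraries summed (adjusted p = 0.242), in limma-voom (0.0583), with no filter on low counts (0.112), and without CCND2mut 1 (0.0524), CCND2mut 3 (0.1), CCND2wt 2 (0.11), CCND2wt 3 (0.113) or Vec 4 (0.052). The Ccnd1 call also ended with the replicate number as a term in the fit (0.109) and with a threshold of 2-fold in the test itself. Cyclin D3 (Ccnd3) stood level, at 102, 109.7 and 121 CPM and 96.6, 108 and 122 CPM. Its log2 fold change was -0.02 with a 95% interval of -0.43 to 0.38.

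The 2 forms separated widely. Of 15660 tested genes 7360 passed an adjusted p of 0.05 (47.0%), with 3633 higher (23.2%) and 3727 lower (23.8%) in CCND2mut. Differences past 8-fold were found for 726 higher and 1195 lower genes among them. The first principal component of log2 CPM, with 64.4% of the variance, put the 3 CCND2mut libraries on 1 side and the CCND2wt and Vec libraries on the other. A second group of genes stood level: for 5531 genes (35.3%) the 95% interval of the fold change lay within 2-fold in both directions, and these are called within 2-fold from here on. Of these, 1372 were also called, with small differences. The remaining 4141 genes (26.4%) were neither called nor within 2-fold. With the CCND2wt libraries summed, 2378 genes passed, 803 higher and 1575 lower, and 3191 were within 2-fold. Each gene list is therefore read against these shares of all genes. The median log2 fold change over all tested genes was 0.02. For 9875 genes (63.1%) all CCND2mut libraries lay on 1 side of all CCND2wt libraries.

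**Figure D1:**
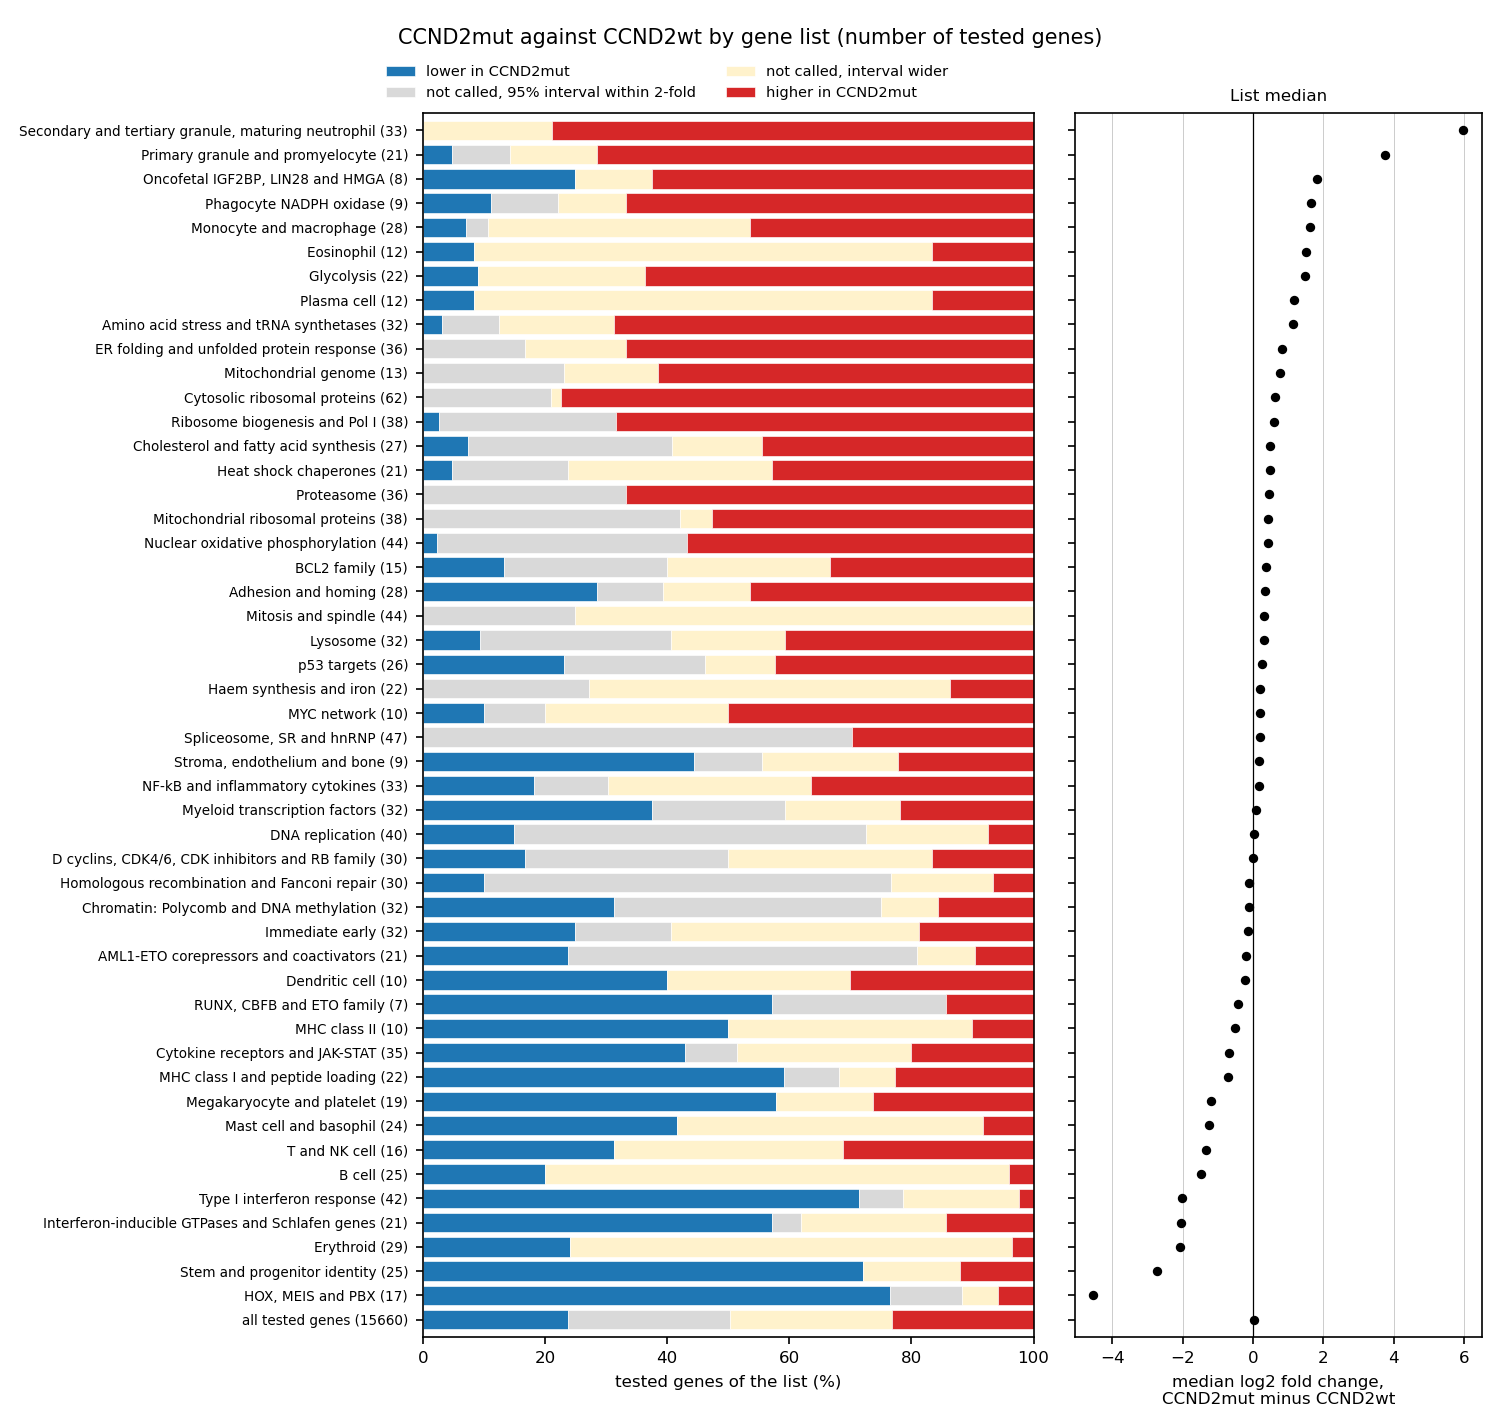
For each gene list, bars show the percentage of tested members that were lower (blue), higher (red), not called but within 2-fold (grey) or neither (yellow) in CCND2mut against CCND2wt, and points at the right show the median log2 fold change, with all tested genes in the last row. Red takes most of the granule, ribosomal and protein folding lists, blue most of the interferon, stem cell and HOX lists, and grey most of the DNA replication, repair and spliceosome lists.

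Genes that mark stem and early progenitor cells were far lower in CCND2mut. Of this list, 3 of 25 tested members rose and 18 fell (summed, 0 and 13), with a median log2 fold change of -2.74. Kit (chromosome 5, 75574916 to 75656722), the receptor of stem cell factor, stood at 1121, 1103 and 1098 CPM in CCND2wt and at 66.3, 123 and 56.7 CPM in CCND2mut (log2 fold change -3.76, SE 0.26, adjusted p = 3.99e-05). The highest CCND2mut library was far below the lowest CCND2wt library. Egfl7, a secreted protein of endothelium and of stem cells whose intron holds a microRNA, stood at 718, 749.8 and 744 CPM and 31.8, 25.5 and 10.5 CPM (log2 fold change -5.03, SE 0.32, adjusted p = 3.99e-05). Angpt1, the TIE2 ligand that stem cells and their niche make, went from 234, 243 and 223 CPM to 23.9, 16.3 and 8.3 CPM (log2 fold change -3.85). The TNF receptor family member Cd27 fell by 2.46 (adjusted p = 7.04e-05). In these 4 genes the groups did not overlap, which held for 63.1% of all tested genes. The members that rose were Ly6e, Prom1 and Thy1, chosen after their values were seen, and Prom1 stood at 43.9, 3.61 and 0.531 CPM in CCND2mut, so that 1 library held most of its signal. With any 1 CCND2wt library left out, 1 member rose.

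The A cluster of HOX genes was all but silent in CCND2mut. HOX genes encode homeodomain factors that keep progenitors from maturing and are shut off as blood cells differentiate. Of the HOX, MEIS and PBX list, 1 of 17 tested members rose and 13 fell (summed, 0 and 8), and the median log2 fold change was -4.54, or -3.57 with genes at 0 set to their bound. Hoxa7 stood at 17, 14.6 and 16.1 CPM in CCND2wt and at 0.243, 0 and 0 CPM in CCND2mut (adjusted p = 0.000125). Hoxa3 stood at 5.03, 2.66 and 3.74 CPM in CCND2wt and had no count in any CCND2mut library. The levels in CCND2wt were low, yet no CCND2mut library reached them. Of the cofactors, Pbx3 fell from 32.5, 39.1 and 32.4 CPM to 3.16, 5.87 and 4.85 CPM (log2 fold change -2.9, SE 0.29, adjusted p = 0.000161), while Pbx2 (-0.24, 95% interval -0.56 to 0.08) and the TALE factor Pknox1 (0.05, -0.33 to 0.44) were within 2-fold. Hoxb4, named after its value was seen, was the 1 member that rose, with 2.61, 0.0668 and 1.86 CPM in CCND2mut. Without the genes of chromosomes 6 and 15, which take out the HOXA cluster, 1 of 9 members rose and 5 fell.

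Among the transcription factors of the myeloid line, 7 of 32 tested members rose and 12 fell (summed, 1 and 1). Spi1 (chromosome 2, 91082390 to 91115756), which encodes PU.1, the master factor of granulocytes and monocytes, rose from 36.1, 42.6 and 40.5 CPM to 197, 113 and 132 CPM (log2 fold change 1.89, SE 0.26, adjusted p = 0.000743). The groups did not overlap in 63.1% of all tested genes, and every CCND2mut library was above every CCND2wt library in Spi1. With the CCND2wt libraries summed its adjusted p was 0.05 after rounding, just above the threshold. Cebpb, the C/EBP factor of emergency granulopoiesis, stood at 43.8, 81.2 and 32.1 CPM and 392, 375 and 196 CPM (log2 fold change 2.62, SE 0.36, adjusted p = 0.000886). Myb, which holds progenitors in cycle and is turned down as they mature, fell from 747, 724 and 739 CPM to 387, 186 and 266 CPM (log2 fold change -1.4, SE 0.22, adjusted p = 0.00136). Tcf4, an E protein of progenitors and plasmacytoid dendritic cells, fell by 1.0. Without CCND2mut 3, CCND2wt 2 or CCND2wt 3, 7 members of the list fell.

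Granule genes of neutrophils were higher in CCND2mut. Primary granules are filled in promyelocytes, and secondary and tertiary granules in later stages. Of the primary granule and promyelocyte list, 15 of 21 tested members rose and 1 fell (summed, 2 and 0), with a median of 3.75. That median was 1.41 without CCND2mut 1, 2.52 in limma-voom and 2.49 without the genes of chromosomes 6 and 15. Hk3, the hexokinase of myeloid cells, stood at 20.5, 20.5 and 23.4 CPM in CCND2wt and at 1039, 1038 and 1445 CPM in CCND2mut (log2 fold change 5.77, SE 0.24, adjusted p = 7.42e-06). Prtn3, which encodes proteinase 3, went from 5.77, 6.17 and 5.45 CPM to 1013, 279 and 304 CPM (log2 fold change 6.52, SE 0.73, adjusted p = 0.000651). Elane, neutrophil elastase, stood at 2.17, 1.98 and 1.93 CPM in CCND2wt and at 1362, 214 and 447 CPM in CCND2mut (log2 fold change 8.37, adjusted p = 0.00218). The CCND2mut libraries differed widely among themselves in Elane, and the lowest of them was still far above the CCND2wt level. Members that did not follow included Gstm1 (-0.12, 95% interval -0.45 to 0.21) and the cystatin Cst7 (0.31, -0.22 to 0.84), both within 2-fold.

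Genes of later neutrophil stages were low in CCND2wt and high in CCND2mut. In this list 26 of 33 tested members rose and 0 fell (summed, 5 and 0), with a median of 5.98. The summed level of its members was 654, 556 and 584 CPM in CCND2wt and 33708, 11194 and 10397 CPM in CCND2mut libraries 1, 2 and 3. Padi4 (chromosome 4, 140745865 to 140774236), which citrullinates histones in neutrophil traps, stood at 3.33, 2.89 and 2.2 CPM in CCND2wt and at 199, 336 and 279.7 CPM in CCND2mut (log2 fold change 6.59, SE 0.26, adjusted p = 5.21e-06). Stfa1, of the stefin A cluster of cysteine protease inhibitors, stood at 0.265, 0.227 and 0.385 CPM and 2517, 343 and 727 CPM (log2 fold change 11.96). Stefin A genes are near-identical copies, and how reads that match several of them were counted is not given in the sources used here, so their single levels are uncertain. The lysozyme gene Lyz2, which both neutrophils and macrophages make, stood at 47.2, 36.5 and 37.4 CPM and at 3164, 1242 and 423 CPM (log2 fold change 5.32, adjusted p = 0.00753). Library 1 of CCND2mut was the highest in Lyz2, Elane and the summed list, and all 3 libraries were above every CCND2wt library in each of them. Without CCND2wt 3, 17 members of the list rose.

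**Figure D2:**
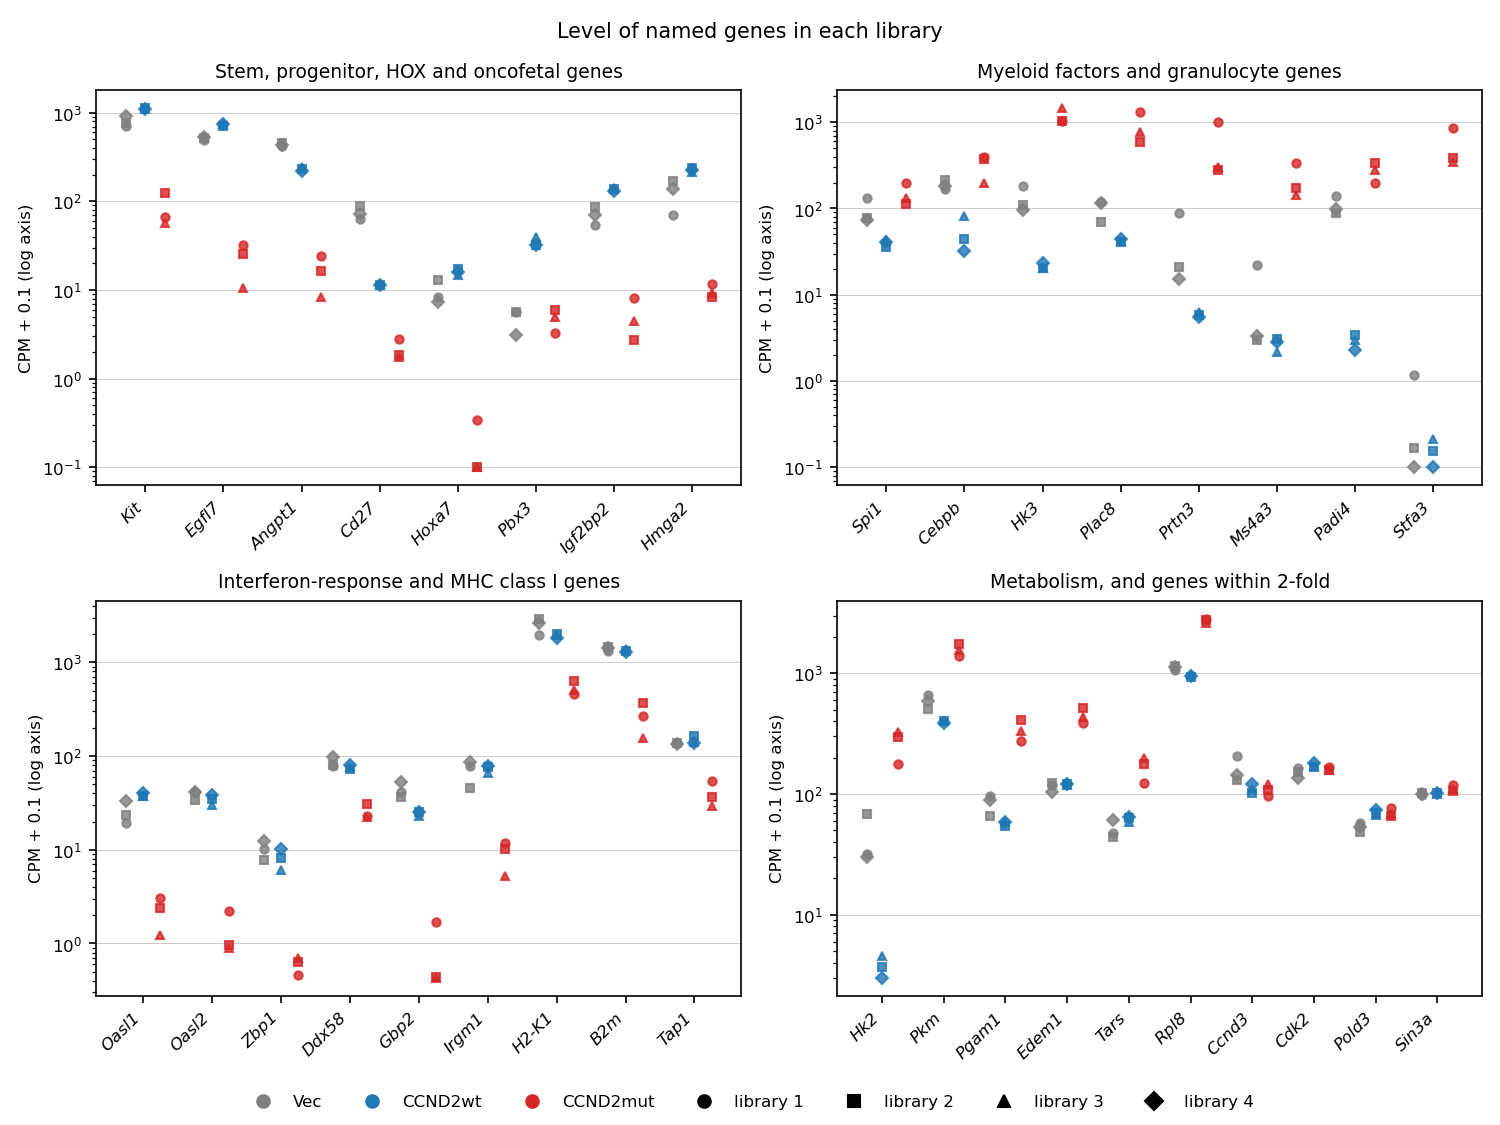
Level of named genes in each of the 9 libraries, with 1 point per library on a log axis of CPM plus a small constant. In the genes of the first 3 panels all CCND2mut points (red) lie on 1 side of the CCND2wt points (blue), and in Ccnd3, Pold3 and Sin3a of the last panel they lie at about the same height.

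Monocyte and macrophage genes moved partly the same way. Of 28 tested members 13 rose and 2 fell (summed, 3 and 2), with a median of 1.62. Cd14, the lipopolysaccharide coreceptor, rose by 7.06 (adjusted p = 0.000249), and Fcgr3, the CD16 Fc receptor, by 2.87 (adjusted p = 0.000149). The 2 that fell were Apoe, the lipid carrier of macrophages, which stood at 1546, 1741 and 1472 CPM in CCND2wt and 74.8, 22.2 and 38.3 CPM in CCND2mut (log2 fold change -5.14, SE 0.42, adjusted p = 0.000125), and Cd163, the haemoglobin scavenger receptor (log2 fold change -2.45). The phagocyte NADPH oxidase, the enzyme that makes superoxide, had 6 of 9 members higher and 1 lower (summed, 2 and 1). Its regulatory subunit Ncf4 (p40phox) went from 2.59, 1.13 and 1.54 CPM to 314, 149.8 and 168 CPM (log2 fold change 6.9, SE 0.44, adjusted p = 4.02e-05). The membrane subunit Cyba rose by 2.48, while the GTPase Rac1 was within 2-fold (-0.22, 95% interval -0.48 to 0.04).

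Mast cell and megakaryocyte genes fell more often than they rose. Of the mast cell and basophil list, 2 of 24 tested members rose and 10 fell (summed, 0 and 4), with a median of -1.26. Hpgds, the synthase of prostaglandin D2, stood at 42.5, 30 and 41.7 CPM in CCND2wt and at 1.15, 0.668 and 0.93 CPM in CCND2mut (log2 fold change -5.36, SE 0.24, adjusted p = 6.44e-06). The vesicular amine transporter Slc18a2 fell by 3.66, the mast cell factor Mitf fell by 3.82 and the IgE receptor chain Fcer1a fell by 4.59. The summed level of the list did not follow the count of genes in every library, with 18961, 19536 and 18811 CPM in CCND2wt and 1913, 16726 and 4492 CPM in CCND2mut. Library 2 of CCND2mut was near the CCND2wt level, and libraries 1 and 3 were far below it. Without CCND2mut 2 the median of the list was -2.66, with 14 members lower.

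In the megakaryocyte and platelet list 5 of 19 tested members rose and 11 fell (summed, 0 and 5), and 3 rose without CCND2wt 2 or 3. The thrombin receptor F2r stood at 304, 308 and 306 CPM in CCND2wt and at 10.1, 0.334 and 0.731 CPM in CCND2mut (log2 fold change -6.35, SE 0.89, adjusted p = 0.00172), and Rab27b, which docks platelet dense granules, fell by 5.53. The erythroid list had 1 member higher and 7 lower of 29 (summed, 0 and 1), with a median of -2.07. In 22 of its members every CCND2mut library was below every CCND2wt library, and in 2 every one was above. The groups did not overlap in 63.1% of all tested genes. Called were 27.6% of the erythroid list, against 47.0% of all tested genes, of which 23.8% fell. With the 6 libraries of both cyclin groups alone 2 rose and 16 fell, and 12 fell without Vec 2. Those that fell included the factor Tal1 (log2 fold change -3.67, SE 0.70, adjusted p = 0.0049) and the carbonic anhydrase Car2 (log2 fold change -5.46, SE 1.00, adjusted p = 0.00607). Both calls ended under the summed setting. Zfpm1, the GATA1 cofactor FOG1, fell by 1.67. The eosinophil list, with 2 higher and 1 lower of 12 (summed, 1 and 0), rose in the sialic acid receptor Siglecf (log2 fold change 4.4) and the common beta chain Csf2rb (1.63). The called share of the eosinophil list was 25%, against 47.0% of all tested genes. This count depended on the Vec libraries: 6 rose without Vec 1, 5 without Vec 2 and 7 with the 6 libraries alone. With CCND2mut 2 or any 1 CCND2wt library left out, 0 fell.

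The B cell list and the T and NK cell list had medians below 0, while the plasma cell list, given at the end, had a median of 1.17. Dntt, the terminal transferase of lymphoid progenitors, stood at 268, 247 and 211 CPM in CCND2wt and at 5.71, 0 and 0 CPM in CCND2mut (log2 fold change -6.96, SE 1.08, adjusted p = 0.00258). The B cell list as a whole had 1 member higher and 5 lower of 25 (summed, 0 and 2), with a median of -1.48, and in 15 members every CCND2mut library was below every CCND2wt library. In 2 members of the B cell list every CCND2mut library was above, and the groups did not overlap in 63.1% of all tested genes. Called were 24% of the B cell list, against 47.0% of all tested genes, of which 23.8% fell. Lower members of this list numbered 12 without Vec 1, where 2 rose, 8 without Vec 2 and 9 without CCND2mut 1. They numbered 10 in DESeq2, and 10 of 18 with the 6 libraries alone. In the T and NK cell list, with a median of -1.34, 5 members rose and 5 fell of 16 (summed, 0 and 2), among them Gata3, a T cell factor (log2 fold change -5.49), the perforin gene Prf1 (-5.03) and the T cell factor Tcf7, which rose (5.51). Without CCND2mut 3, CCND2wt 2 or CCND2wt 4, 1 member rose and 5 fell, and 3 rose and 4 fell without CCND2wt 3. The number of tested members depended on the Vec libraries. With the 6 libraries alone 7 were tested, of which 1 rose and 5 fell, with a median of -2.38. The summed levels of the T and NK cell list were low in both groups, at 82.7, 90.8 and 90.1 CPM and 20.5, 22.3 and 43.6 CPM. Of the stroma, endothelium and bone list, 2 of 9 tested members rose and 4 fell (summed, 0 and 3). The matrix protein Sparc stood at 125, 147 and 159 CPM in CCND2wt and at 1.52, 0.0668 and 0 CPM in CCND2mut (log2 fold change -8.01, SE 0.88, adjusted p = 0.000255), and the collagen chain Col4a1 fell by 6.58. Summed over that list the groups overlapped, at 591, 638 and 595 CPM and 462, 531 and 634 CPM. What part other cell types had in any of these results was not tested.

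**Figure D3:**
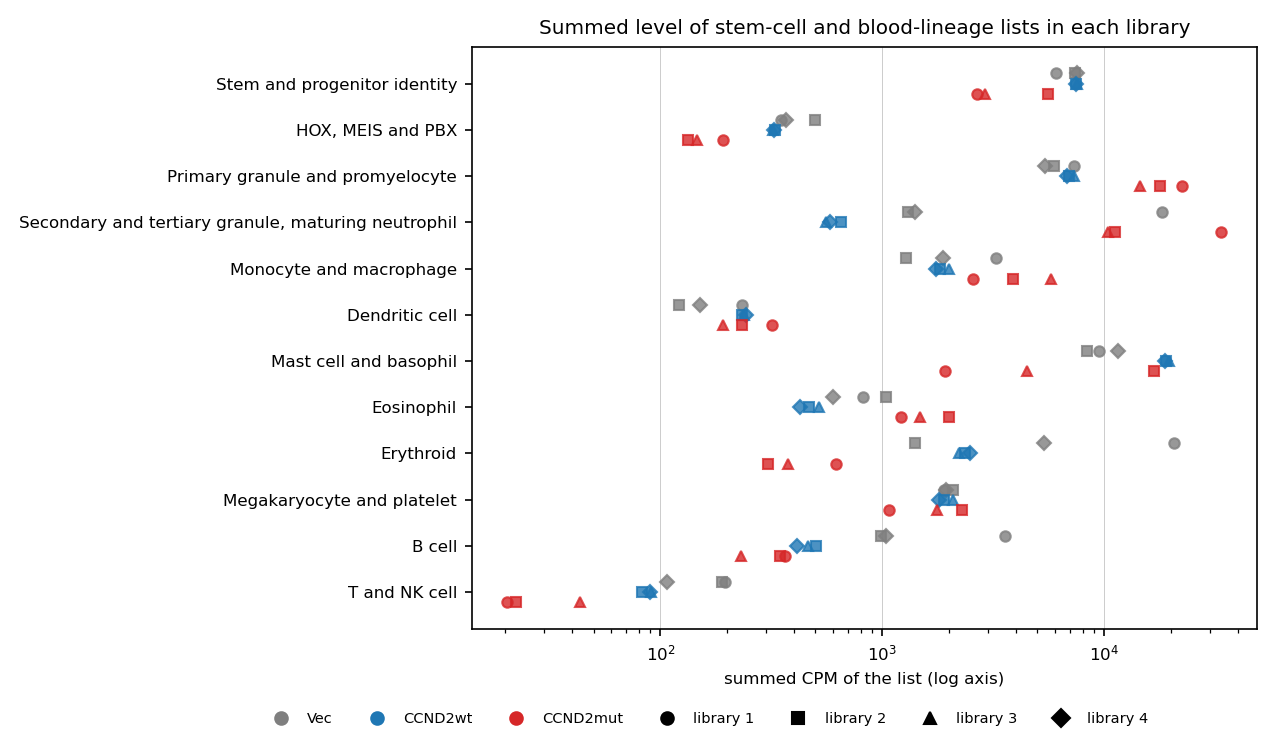
Summed CPM of the stem cell and blood lineage lists in each library on a log axis, with 1 point per library. Maturing neutrophil genes lie at 556 to 654 CPM in CCND2wt and at 10397 CPM or more in CCND2mut, and mast cell markers lie lower in CCND2mut libraries 1 and 3 and near the CCND2wt level in library 2.

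Interferon response genes were mostly lower in CCND2mut. Type I interferon signals through its receptor to induce antiviral enzymes and sensors, many of which cells also keep at a basal level. Of this list, 1 of 42 tested members rose and 30 fell (summed, 1 and 24), with a median of -2.02. Oasl2 (chromosome 5, 114896936 to 114912234), of the oligoadenylate synthetase family, stood at 34.8, 29.9 and 38.1 CPM in CCND2wt and at 2.12, 0.868 and 0.797 CPM in CCND2mut (log2 fold change -4.74, SE 0.33, adjusted p = 3.4e-05). Its relative Oasl1 fell by 4.16, the nucleic acid sensor Zbp1 fell by 3.99 and the RNA sensor Ddx58 (RIG-I) fell by 1.61. The signalling factor Stat2 was lower by 0.63 but within 2-fold (95% interval -0.99 to -0.27), and its interval passed 2-fold when any 1 library other than CCND2mut 2 was left out. Ifi35 was within 2-fold as well (-0.15, -0.44 to 0.15). The 1 member that rose was the nuclear body protein Sp100 (log2 fold change 0.99), named after its value was seen.

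The interferon-inducible GTPases and Schlafen genes were mostly lower. Of them, 3 of 21 tested members rose and 12 fell (summed, 0 and 8), with a median of -2.04. Slfn8 stood at 41.3, 38 and 46.5 CPM and 10.4, 10.5 and 9.63 CPM (log2 fold change -2.04, SE 0.12, adjusted p = 1.77e-05), and the guanylate-binding protein Gbp2 (-5.0) and the immunity-related GTPase Irgm1 (-3.03) fell. The rises were all Schlafen genes, Slfn1, Slfn2 and Slfn4, chosen after their values were seen, at log2 fold changes of 5.2, 2.15 and 6.79. Slfn4 stood at 5.98, 4.31 and 5.23 CPM in CCND2wt and at 506, 817 and 393 CPM in CCND2mut. Without CCND2wt 2 or 4, 1 member of the list rose. The summed level of the list did not follow the count of genes, with 409, 377 and 452 CPM in CCND2wt and 776, 1046 and 543 CPM in CCND2mut.

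Antigen presentation genes were lower in part in both classes. Class I molecules show peptides of the cell's own proteins, loaded with the help of TAP and tapasin. In this list 5 of 22 tested members rose and 13 fell (summed, 0 and 7), with a median of -0.7. B2m, the light chain of every class I molecule, stood at 1306, 1382 and 1275 CPM in CCND2wt and at 269, 371 and 156 CPM in CCND2mut (log2 fold change -2.32, SE 0.26, adjusted p = 0.000272). The heavy chain H2-K1 went from 2017, 1932 and 1802 CPM to 459, 624 and 506 CPM (log2 fold change -1.86, SE 0.18, adjusted p = 0.000114), and the transporter Tap1 fell by 1.88. Class I heavy chain genes are similar copies, so the split of reads between them is uncertain. The proteasome activator Psme1 (0.35, 95% interval 0.16 to 0.55) and the tapasin relative Tapbpl (0.64, 0.37 to 0.91) were within 2-fold, though the interval of Tapbpl passed it without CCND2mut 3 or CCND2wt 4. With CCND2mut 2 or any 1 CCND2wt library left out, 3 members rose. Class II genes had low levels in both groups, at 102, 104 and 102 CPM summed in CCND2wt and 42.1, 34.6 and 25.1 CPM in CCND2mut, and 1 of 10 tested members rose and 5 fell (summed, 0 and 3). Without Vec 1, 3 class II members rose, and 0 rose with any 1 library of the cyclin groups left out. H2-DMa, which loads class II peptides, stood at 41.4, 40.2 and 43.6 CPM and 3.22, 2.07 and 1.2 CPM (log2 fold change -4.26, SE 0.29, adjusted p = 3.18e-05).

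Receptors and signal carriers of cytokines were lower more often than higher. Of this list, 7 of 35 tested members rose and 15 fell (summed, 3 and 6), with a median of -0.69. Il6st, the gp130 chain shared by the interleukin 6 family, stood at 67.8, 74.6 and 74 CPM in CCND2wt and at 2.55, 1.2 and 0.465 CPM in CCND2mut (log2 fold change -5.66, SE 0.41, adjusted p = 5.45e-05). Stat5a, which carries signals of growth factor receptors to the nucleus, fell from 296, 263 and 294 CPM to 86.2, 64 and 54.3 CPM (log2 fold change -2.06, SE 0.18, adjusted p = 7.04e-05). In the other direction Csf2ra, the alpha chain of the GM-CSF receptor, rose from 16.6, 17.2 and 12.9 CPM to 296, 306 and 214 CPM (log2 fold change 4.13, SE 0.31, adjusted p = 7.02e-05), beside the beta chain Csf2rb given above. Stat6 (0.27, 95% interval 0.07 to 0.48) and the kinase Tyk2 (0.26, 0.01 to 0.51) were within 2-fold.

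Inflammatory genes went in both directions. Among NF-kB and cytokine genes, 12 of 33 tested members rose and 6 fell (summed, 3 and 2), with a median of 0.16. The chemokine Ccl3 rose by 7.26, the neutrophil chemokine Cxcl3 by 4.87 and the NF-kB subunit Nfkb1 by 0.82. Without CCND2wt 2, 7 members rose, and the median was 0.02 without CCND2mut 1 and 0.42 without CCND2wt 3. Among immediate early genes, 6 of 32 tested members rose and 8 fell (summed, 3 and 1), and 4 fell without CCND2wt 2 or 3 and 5 without CCND2mut 1. Called were 43.8% of the immediate early list, near the 47.0% of all tested genes. The AP-1 subunit Fosl1 rose by 6.07 and the ERK-induced survival gene Ier3 by 4.34. Junb (-0.16, 95% interval -0.6 to 0.28) and Ier2 (-0.35, -0.81 to 0.12) were within 2-fold. Of the brakes on the RAS-ERK pathway in the same list, Spred1 fell by 1.57 and its paralogue Spred2 rose by 1.68.

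Among oncofetal genes, which are on in fetal cells and mostly shut after birth, 2 pairs of paralogues moved in opposite directions. Hmga2, an architectural chromatin protein of fetal stem cells, stood at 239.5, 212 and 224 CPM in CCND2wt and at 11.5, 8.14 and 9.23 CPM in CCND2mut (log2 fold change -4.55, SE 0.29, adjusted p = 3.36e-05). Its paralogue Hmga1 went the other way, from 67.2, 74.4 and 67.8 CPM to 292, 295 and 312 CPM (log2 fold change 2.1, SE 0.15, adjusted p = 3.2e-05). The mRNA-binding protein Igf2bp2 fell from 139, 143 and 132 CPM to 8.01, 2.6 and 4.32 CPM (log2 fold change -4.79, SE 0.35, adjusted p = 5.88e-05), and Igf2bp3 rose from 30.9, 24.8 and 29.9 CPM to 87.5, 78.6 and 81.6 CPM (log2 fold change 1.53, SE 0.15, adjusted p = 0.000119). In each of the 4 genes the CCND2mut libraries lay on 1 side of all CCND2wt libraries, which held for 63.1% of all tested genes. Of the whole list of 8 members 5 rose and 2 fell (summed, 3 and 2).

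Among chromatin regulators 46.9% of tested members were called, near the 47.0% of all tested genes. Within 2-fold were 53.1%, against 35.3% of all genes. Of Polycomb and DNA methylation genes, 5 of 32 tested members rose and 10 fell (summed, 0 and 7), and 17 were within 2-fold. Without CCND2wt 2 or 3, 3 rose. Tet1, which oxidises methylated cytosine, stood at 22.1, 20.9 and 21.8 CPM in CCND2wt and at 0.425, 0.267 and 0 CPM in CCND2mut (log2 fold change -6.48, adjusted p = 6.99e-05). The Polycomb subunit Bmi1, needed for stem cell self-renewal, fell from 169, 163 and 165 CPM to 70.7, 64 and 74.5 CPM (log2 fold change -1.25, SE 0.10, adjusted p = 4.25e-05), and Phc1 of the same complex fell by 2.27. Ezh1, the catalytic subunit of resting cells, fell by 0.87.

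Most glycolytic genes were higher. Glycolysis turns glucose to pyruvate in the cytosol, and 14 of 22 tested gene records rose and 2 fell (summed, 9 and 2), with a median of 1.48 (Aldoa stands under 2 identifiers). Hk2, the inducible hexokinase, stood at 3.6, 4.48 and 2.92 CPM in CCND2wt and at 177, 297 and 329 CPM in CCND2mut (log2 fold change 6.19, SE 0.38, adjusted p = 3.57e-05). Pkm, the pyruvate kinase, went from 401, 406 and 389.7 CPM to 1397, 1763 and 1547 CPM (log2 fold change 1.98, SE 0.14, adjusted p = 2.9e-05) and Pgam1, the phosphoglycerate mutase, from 54.4, 58.1 and 58.9 CPM to 275, 409 and 334 CPM (log2 fold change 2.57, SE 0.18, adjusted p = 3.38e-05). Among the falls was Pdk1, which inhibits pyruvate dehydrogenase (log2 fold change -1.32). Without genes of chromosomes 6 and 15 the list held 10 higher and 1 lower of 17, with a median of 1.12.

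Respiratory genes rose by less. Of the nuclear genes of oxidative phosphorylation, 25 of 44 tested members rose and 1 fell (summed, 7 and 1), while 33 were within 2-fold, with a median of 0.43. Cycs, somatic cytochrome c, stood at 42.5, 45.6 and 49.3 CPM and 141, 147 and 201 CPM (log2 fold change 1.83, SE 0.14, adjusted p = 4.71e-05). Uqcrq of complex III rose by 1.68, and Sdhc of complex II was level (0.07, 95% interval -0.15 to 0.3). Of the genes of the mitochondrial genome, 8 of 13 tested members rose and 0 fell (summed, 0 and 0), and 5 rose without CCND2wt 2 or 4. The complex I subunit mt-Nd5 stood at 692, 698 and 637 CPM and 1477, 1526 and 1394 CPM (log2 fold change 1.12, adjusted p = 0.00284), and all mitochondrial genes together took 0.969% to 0.997% of counts in CCND2wt and 1.39% to 1.47% in CCND2mut. In sterol synthesis, 12 of 27 tested members rose and 2 fell (summed, 3 and 0), and 1 fell with CCND2mut 2, Vec 4 or any 1 CCND2wt library left out. The sterol-sensing factor Srebf2 rose by 0.93.

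Most of the machinery of protein synthesis was higher, by small amounts. Of the cytosolic ribosomal protein genes, 48 of 62 tested members rose and 0 fell (summed, 5 and 0), with a median of 0.63, and 36 were within 2-fold. Rpl8 stood at 927, 980.3 and 948 CPM in CCND2wt and at 2828, 2739 and 2607 CPM in CCND2mut (log2 fold change 1.52, SE 0.10, adjusted p = 2.36e-05). Rpl8 and Rpl37 are on chromosome 15 and Rpl32 on chromosome 6, the 2 chromosomes with raised medians given below, and without those chromosomes 44 of 57 ribosomal protein genes rose and 0 fell. Rps2 rose by 1.03. Ribosomal protein genes have many processed pseudogenes, which can take or lend reads. In ribosome biogenesis 26 of 38 tested members rose and 1 fell (summed, 6 and 1), with a median of 0.59. Polr1a, the largest subunit of RNA polymerase I, rose by 2.11 and Nhp2, of the H/ACA particles that modify rRNA, by 1.47. Of the mitochondrial ribosomal proteins, 20 of 38 tested members rose and 0 fell (summed, 2 and 0), and 13 rose without CCND2wt 2 or 3. Of the MYC network, 5 of 10 tested members rose and 1 fell (summed, 1 and 0), among them the partner Max (by 1.29) and the antagonist Mxi1 (by 1.64), and 2 of its members fell without CCND2wt 4, Vec 1 or Vec 2.

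Protein folding, amino acid supply and degradation followed. Of the endoplasmic reticulum folding list, 24 of 36 tested members rose and 0 fell (summed, 9 and 0), with a median of 0.81. Edem1, which feeds misfolded glycoproteins to degradation, stood at 120.3, 119.7 and 122 CPM in CCND2wt and at 391, 512 and 437 CPM in CCND2mut (log2 fold change 1.89, SE 0.12, adjusted p = 2.4e-05). The BiP cofactor Sdf2l1 rose by 2.64 and Creld2 by 1.72. In the list of amino acid stress and tRNA synthetases, 22 of 32 tested members rose and 1 fell (summed, 2 and 0), with a median of 1.14. Sesn2, the leucine sensor that holds back mTORC1, rose by 3.27, the glutamine carrier Slc1a5 by 1.63 and the threonyl-tRNA synthetase Tars by 1.43, while the serine synthesis enzymes Phgdh (0.01) and Psph (0.15) were within 2-fold, though the interval of Phgdh passed it without CCND2mut 2. The count of falls in this list was 0 without CCND2mut 1 or CCND2wt 3 and 2 without CCND2mut 2. Of the proteasome genes, 24 of 36 tested members rose and 0 fell (summed, 2 and 0), at a median of 0.45 and with 31 within 2-fold. The catalytic subunit Psmb5 rose by 1.37. Without CCND2wt 2 or 3, 13 or 14 proteasome genes rose.

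Genes of p53 and apoptosis went in both directions. Of the p53 targets, 11 of 26 tested members rose and 6 fell (summed, 5 and 3). Perp, a p53 target in the cell membrane, stood at 6.98, 5.95 and 7.54 CPM in CCND2wt and at 159, 344 and 339.7 CPM in CCND2mut (log2 fold change 5.36, SE 0.33, adjusted p = 3.57e-05). Trp53 itself was lower by 0.68 and within 2-fold (95% interval -0.97 to -0.39), an interval that passed 2-fold with CCND2mut 1, CCND2mut 3, Vec 4 or any 1 CCND2wt library left out. The sestrins Sesn1 and Sesn3, which restrain mTORC1 in starved cells, fell (log2 fold changes -2.02 and -2.69), opposite to Sesn2. In the BCL2 family, which sets whether mitochondria release cytochrome c, 5 of 15 tested members rose and 2 fell (summed, 4 and 1), and 8 of 18 rose without Vec 4. Called were 46.7% of the BCL2 family, near the 47.0% of all tested genes. Pmaip1, the death gene NOXA, went from 17.4, 18.6 and 17.9 CPM to 299, 324 and 135 CPM (log2 fold change 3.82, SE 0.38, adjusted p = 0.000229). The effector Bax rose by 1.03 and its activator Bid by 1.85, and Bok fell by 5.19.

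DNA replication genes, which cells switch on as they enter S phase, were mostly within 2-fold. Of 40 DNA replication genes, 29 were within 2-fold (72.5%, against 35.3% of all genes), 3 rose and 6 fell, and the median was 0.04. Under the summed setting 15 were within 2-fold, 0 rose and 0 fell. The median near 0 lay between CCND2mut libraries on opposite sides: library 1 was above all CCND2wt libraries in 29 genes and library 2 below all of them in 28, while library 3 was above in 22 and below in 14. The median was -0.08 without CCND2mut 1 and 0.15 without CCND2mut 2. Without CCND2wt 3, 0 rose, without CCND2wt 2 or 4, 1 rose, without Vec 1, 5 rose, and with the 6 libraries alone 6 rose and 10 fell. Pold3, a subunit of DNA polymerase delta, stood at 69.8, 67 and 74.3 CPM in CCND2wt and at 77, 65.4 and 68.5 CPM in CCND2mut (log2 fold change -0.001, 95% interval -0.25 to 0.24). The groups overlapped there. Pola2, of the primase complex, went from 121, 122 and 125 CPM to 88.8, 75.6 and 77 CPM (log2 fold change -0.61, SE 0.093, adjusted p = 0.000975), and Prim1 fell by 0.88. Tk1, the S-phase thymidine kinase, fell from 104, 96.9 and 112 CPM to 61, 27 and 44.9 CPM (log2 fold change -1.24, SE 0.32, adjusted p = 0.0129).

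**Figure D4:**
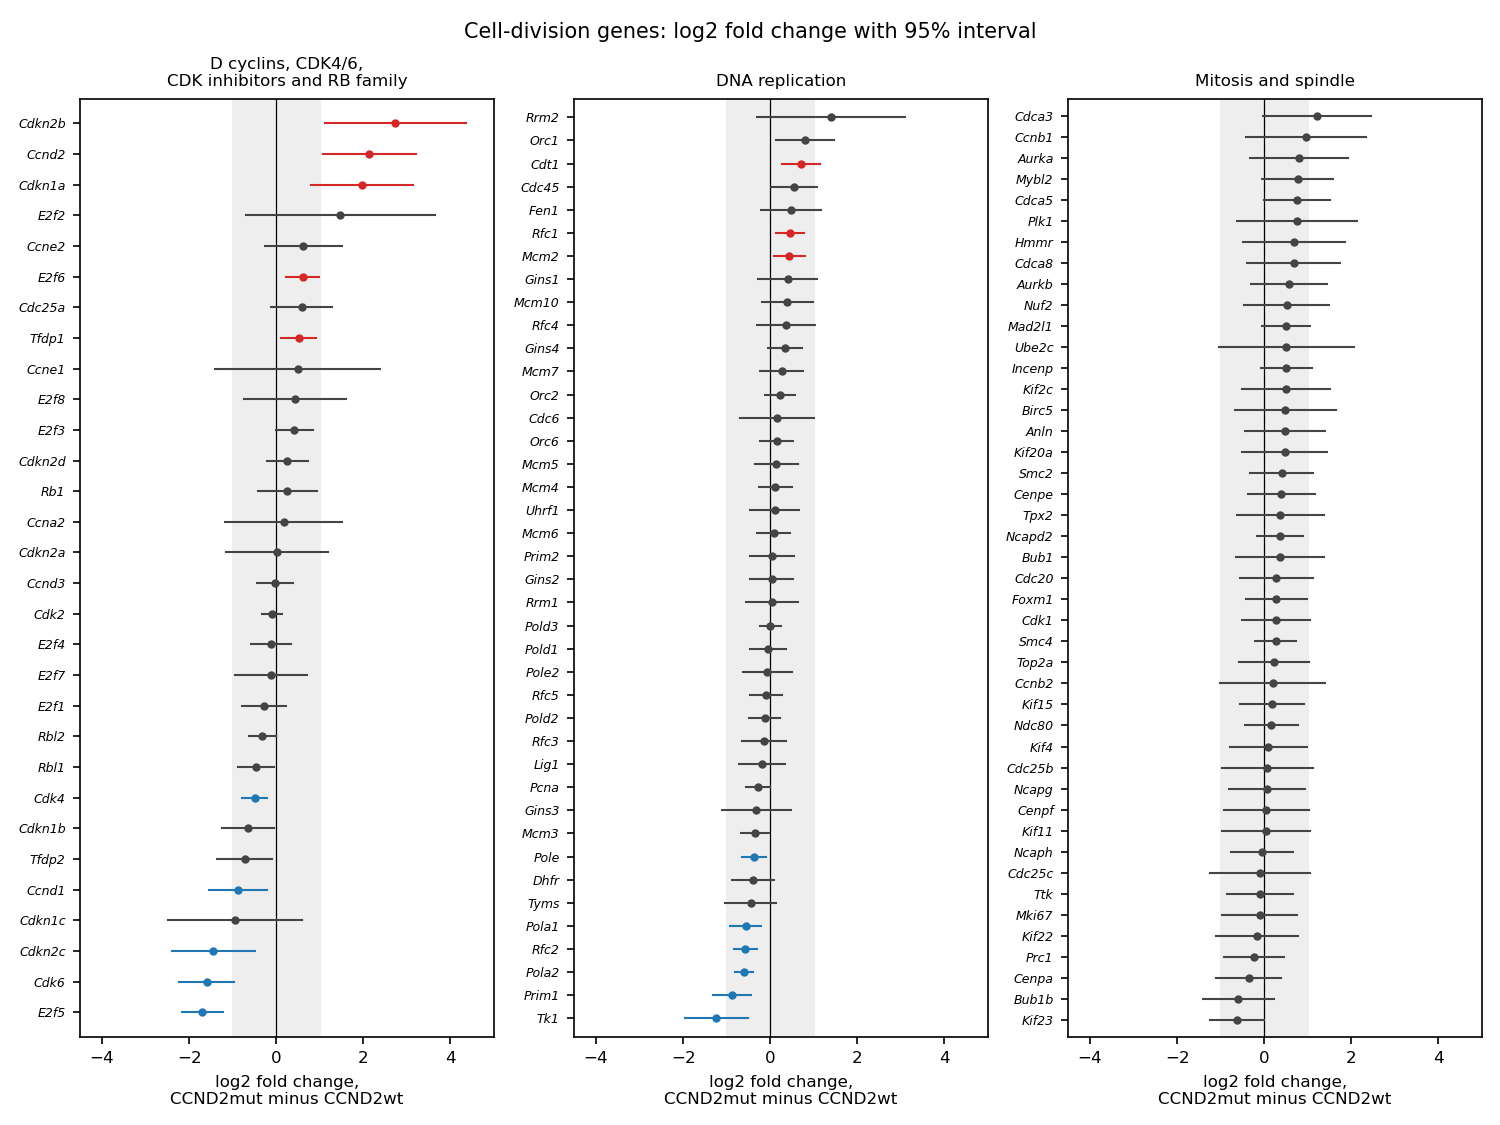
Log2 fold change of CCND2mut over CCND2wt with its 95% interval for the tested genes of 3 cell division lists, with called genes in red (higher) or blue (lower) and the range within 2-fold shaded grey. Most intervals of DNA replication genes lie inside the shaded range, while 33 of 44 mitosis genes have intervals that leave it.

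Genes of mitosis were not shown to be level, although 0 were called. Of 44 tested genes 0 rose and 0 fell in edgeR, and 0 had an unadjusted p under 0.05. DESeq2 gave 1 higher and 0 lower, and limma-voom 2 and 0. Only 11 were within 2-fold, and the median was 0.32, or 0.13 without CCND2mut 1. The counts changed with the Vec libraries in the fit: with the 6 libraries of both cyclin groups alone, 11 rose, 1 fell and 33 were within 2-fold, and without Vec library 1, 10 rose, 1 fell and 34 were within 2-fold. Without Vec 2, 18 were within 2-fold, and without CCND2mut 2, CCND2mut 3 or any CCND2wt library 3 to 5 were. Smc4, of the condensin complex, stood at 325, 325 and 332 CPM in CCND2wt and at 459, 328 and 389 CPM in CCND2mut (log2 fold change 0.26, 95% interval -0.21 to 0.73). Library 1 of CCND2mut was above all CCND2wt libraries in 41 of 44 mitosis genes, library 2 in 14 and library 3 in 33.

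Of the list of D cyclins, CDK4/6, CDK inhibitors and RB family, 5 members rose and 5 fell of 30 (summed, 0 and 1), with 13 within 2-fold. Without CCND2mut 3 or CCND2wt 2, 2 rose and 3 fell, and without CCND2wt 3 or 4, 2 rose and 4 fell. Cdk6 (chromosome 5, 3341485 to 3531008), the kinase partner that early progenitors favour, stood at 1048, 1012 and 962 CPM in CCND2wt and at 416, 223 and 358 CPM in CCND2mut (log2 fold change -1.6, SE 0.28, adjusted p = 0.00201). Its partner in the pathway, Cdk4, was lower by 0.49 and within 2-fold, at 322, 319 and 346 CPM and 259, 199 and 243 CPM. Both calls ended with the CCND2wt libraries summed (adjusted p = 0.0513 for Cdk6 and 0.16 for Cdk4). The Cdk4 call also ended with the replicate number as a term in the fit (adjusted p = 0.0529) and with a threshold of 2-fold in the test itself. Cdk2 was level, with a log2 fold change of -0.09 (95% interval -0.32 to 0.13), and E2f5, which pairs with the RB relative p130, fell by 1.69. Cdkn2a, which encodes p16INK4A and ARF, had a log2 fold change of 0.02, but its CCND2mut libraries stood at 8.92, 14.7 and 36.7 CPM against 17.9, 19.8 and 21.7 CPM, with 2 below and 1 above all CCND2wt libraries. Its sign changed under several settings.

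Most repair and splicing genes were also within 2-fold, as were most fusion partner genes. In homologous recombination and Fanconi repair, 20 of 30 members were within 2-fold, 2 rose and 3 fell (summed, 0 and 0), and 6 fell without CCND2mut 1. Fancd2, which is ubiquitinated at stalled forks, was an exception, at 34.3, 34 and 38.3 CPM in CCND2wt and 98.4, 63.2 and 91 CPM in CCND2mut (log2 fold change 1.24, SE 0.24, adjusted p = 0.0034), while the damage kinases Atm (-0.75) and Chek2 (-0.85) fell, the latter with an adjusted p of 0.0537 without CCND2mut 3. Of 47 spliceosome, SR and hnRNP genes, 44 were within 2-fold (93.6%), 14 rose by small amounts and 0 fell (summed, 1 and 0). Without CCND2wt 2 or 3, 8 rose. Prpf6 of the tri-snRNP was at 0.04 (95% interval -0.16 to 0.25).

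Runx1 and Runx1t1, whose counts can hold reads of the fusion, were within 2-fold. Of the RUNX, CBFB and ETO family, 6 of 7 tested members were within 2-fold, while 1 rose and 4 fell. The called share of this family was 71.4%, against 47.0% of all tested genes. With any 1 library of the cyclin groups left out, 3 to 5 members were within 2-fold. Runx1 stood at 206, 205 and 201 CPM in CCND2wt and 148, 156 and 123 CPM in CCND2mut (log2 fold change -0.52, SE 0.20, adjusted p = 0.0577), a difference that missed the threshold. It passed in DESeq2 (adjusted p = 0.0376), with no filter on low counts (0.0348), with the 6 libraries alone (0.00913), and without Vec 1 (0.00782) or Vec 2 (0.0258). Runx1t1 stood at 86.8, 83.5 and 79 CPM and 65.4, 70.6 and 50.9 CPM (log2 fold change -0.42, SE 0.15, adjusted p = 0.0471), and its call ended with the CCND2wt libraries summed (adjusted p = 0.286), without CCND2mut 1 (0.0604), CCND2mut 3 (0.137), CCND2wt 2 (0.131), CCND2wt 3 (0.109), CCND2wt 4 (0.0818) or Vec 4 (0.064), and without the genes of chromosomes 6 and 15 (0.0616). The Runx1t1 call also ended with the replicate number as a term in the fit (0.101) and with a threshold of 2-fold in the test itself. In Runx1 and Runx1t1 every CCND2mut library was below every CCND2wt library, and the groups did not overlap in 63.1% of all tested genes. Of the corepressors and coactivators that AML1-ETO binds, 17 of 21 were within 2-fold, 2 rose and 5 fell (summed, 0 and 1), with 3 falls when any 1 CCND2wt library was left out and 8 in DESeq2. Sin3a, the scaffold of a deacetylase complex, stood at 102, 100.5 and 103 CPM and 119, 105 and 111 CPM (log2 fold change 0.14, 95% interval -0.06 to 0.33). Ldb1, which joins LMO2 to the AML1-ETO complex, fell from 446, 434 and 461 CPM to 209, 212 and 192 CPM (log2 fold change -1.13, SE 0.12, adjusted p = 0.000199), and its partner Lmo2 fell by 1.7.

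The largest differences were genes with almost no reads in 1 group. With at most 3 counts summed over 1 group and 5 CPM or more on average in the other, 89 genes were on in CCND2mut and 59 in CCND2wt. Retnla, a resistin-like secreted protein, had 0 counts in CCND2wt and stood at 38.6, 1068 and 779 CPM in CCND2mut, at least 11121-fold higher against a floor of 3 counts over the group. Library 1 was low in it. BC100530, of the stefin A cluster, passed 3 counts over CCND2wt and so is not among the 89. It stood at 0.0529, 0.113 and 0.055 CPM and 1959, 1113 and 1419 CPM (log2 fold change 14.18). The cytochrome P450 gene Cyp2a5 was at least 1518-fold and the growth factor Bmp2 at least 815-fold higher, both with 0 counts in CCND2wt.

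On the side of CCND2wt, Sox21, a transcription factor of neural progenitors, stood at 92.7, 76.9 and 105 CPM and had 0 counts in CCND2mut, at least 1420.3-fold lower. The orphan receptor Gprc5c was at least 1172-fold lower. Etl4, which passed 3 counts over CCND2mut and so is not among the 59, stood at 651, 627 and 614 CPM and 0, 0 and 0.399 CPM (adjusted p = 1.88e-05). Frem2, a basement membrane protein of epithelia, had 4078 counts in CCND2wt and 1 in CCND2mut. Each of the 4 genes was close to level over the 3 CCND2wt libraries and had at most 1 library with a read in CCND2mut.

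Levels also moved by chromosome. Over tested genes that averaged 5 CPM or more, the median log2 fold change was 0.70 on chromosome 15, with 259 genes higher and 55 lower of 436, and 0.42 on chromosome 6, with 250 higher and 106 lower of 542. On the other chromosomes it ran from -0.13 to 0.14. Each CCND2mut library showed both, with medians of 0.593, 0.627 and 0.65 on chromosome 15 and of 0.277, 0.45 and 0.408 on chromosome 6 against the mean of CCND2wt, while the CCND2wt libraries were within 0.016 of their own mean. Without these 2 chromosomes, 6518 genes passed. The number of copies of these chromosomes was not measured, and its part in the results on genes that lie there was not tested. Such genes include Ccnd2, Hk2, Cycs, Rpl8, Angpt1 and the HOXA genes. Of list members there, 5 of 5 rose in endoplasmic reticulum folding and 5 of 5 in amino acid stress and tRNA synthetases. Among cytokine receptors 3 of 4 there rose, among p53 targets 3 of 4, and in the HOX, MEIS and PBX list 0 of 8. The median of the p53 targets was 0.26, and 0.05 without these chromosomes.

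**Figure D5:**
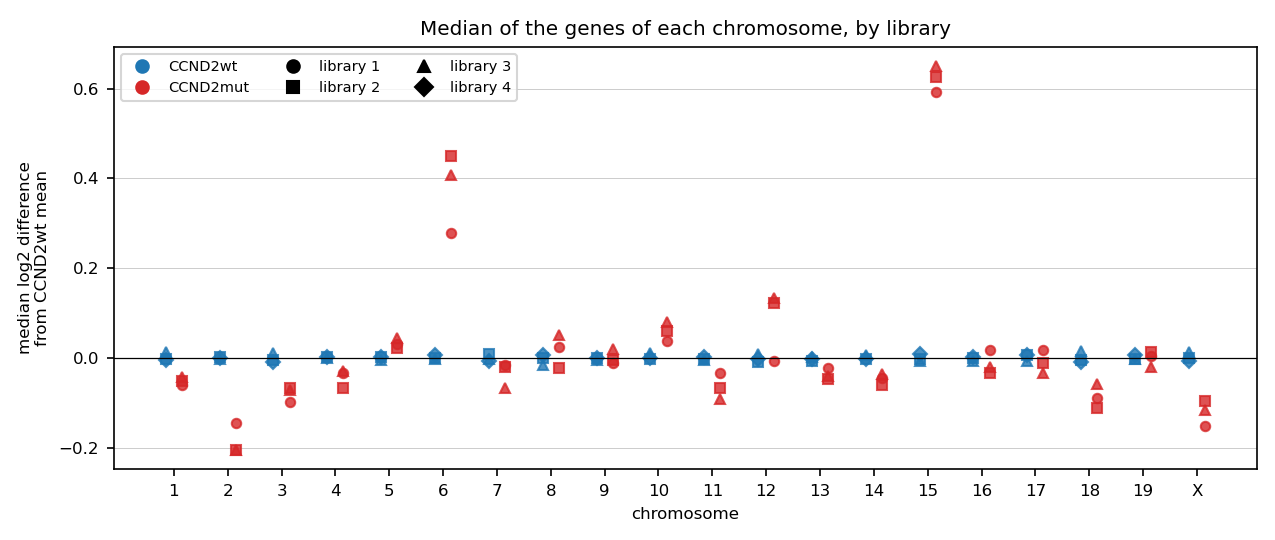
Median log2 difference of the genes of each chromosome that averaged 5 CPM or more, for each CCND2mut and CCND2wt library against the CCND2wt mean. Chromosomes 6 and 15 lie above 0 in all 3 CCND2mut libraries, and the CCND2wt points lie within 0.016 of 0.

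The CCND2mut libraries were not alike in size of effect. Library 1 had 1446 genes over 2-fold from the mean of the other CCND2mut libraries, library 2 had 1037 and library 3 had 712. Of the 7360 called genes, 29 lay on the other side of the CCND2wt mean in library 1, 1 in library 2 and 3 in library 3. These genes were called with the same libraries, which favours genes that share a direction. The low counts therefore do not measure how steady direction was.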

How the data were processed

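The authors deposited raw read counts per gene of 9 mouse bone marrow libraries, 3 in each group. Per the labels' protocols, the RNA came from a TRIzol extraction and the libraries from an NEBNext Ultra kit. Per the submitters' processing notes, CASAVA 1.8, fastp, HISAT2 2.0.5, featureCounts 1.5.0-p3, DESeq2 1.20.0 and the build mm10 were used. Sources used here do not give the annotation release, the strand setting or the handling of multiply mapped reads, so a gene cannot be told apart from an overlapping or antisense neighbour. Columns were matched to samples by title, with 0 columns unmatched. Of 54532 genes in the file 30980 had a read, and filterByExpr kept 15660 (12701 protein-coding).

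A quasi-likelihood model with TMM scaling and robust dispersion was fitted to all 9 libraries together, with edgeR 4.0.16 under R 4.3.3 and limma 3.58.1, which left 6 residual degrees of freedom. The contrast was CCND2mut minus CCND2wt. The script was tested on simulated data. The Benjamini-Hochberg adjustment covered every tested gene, with a threshold of 0.05. Standard errors and 95% intervals came from the fit. Genes with 0 counts in a group were given a bound from a floor of 3 counts, which covers counting error only. The 50 gene lists held 1335 genes, of which 1246 were tested. The comparison, its lists and its rules were chosen with earlier results of these data known. Lists were described by counts and medians, with no test.

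Genes were named by a rule: 8 genes of the cyclin D and fusion partner loci; the 12 higher and 12 lower protein-coding genes with the largest called change, groups that did not overlap and at least 5 CPM in the higher group; and of each list up to 4 called members with the smallest adjusted p and up to 2 members within 2-fold with the narrowest interval. The text uses some of these. Ptprc, Mpo, Elane and Lyz2 checked the labelled cells, and Xist and Ddx3y the sex-linked levels. Other genes are said to be chosen after their values were seen. The fit was repeated with RLE scaling, DESeq2 1.42.0, limma-voom, no filter or a stricter one, the 6 libraries alone, the replicate number as a term, a 2-fold threshold, a 1.5-fold bound for closeness, each library left out, and the CCND2wt libraries summed. It was also repeated without genes of haemoglobin, immunoglobulin and mitochondria, without chromosomes X and Y, and, chosen after the medians by chromosome were seen, without chromosomes 6 and 15.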

Additional observations from a re-analysis of the deposited data

How the results depend on the processing

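The count of called genes, 7360 by the fit of all libraries, moved by over 1.5 times under 2 settings. With a threshold of 2-fold in the test itself, 2875 genes passed, 1134 higher and 1741 lower. With the CCND2wt libraries summed to 1 sample, 2378 passed, 803 higher and 1575 lower, and 3191 were within 2-fold against 5531. The share of higher genes among the calls was 49.4%, and 39.4% and 33.8% under these settings. With a bound of 1.5-fold in place of 2-fold, 2171 genes counted as close. Leaving out each library in turn gave 5666 to 7900 called genes, 2678 to 3839 higher, 2988 to 4071 lower and 4728 to 5767 within 2-fold. A replicate block, a term for the replicate number in the labels, gave 6045 called genes, 2875 higher and 3170 lower, with 4967 within 2-fold, and of the Mitosis and spindle list 0 rose and 3 fell. The deviations of same-numbered libraries of the 2 groups had correlations of -0.0695 and -0.0727. With only these values, and CCND2wt libraries that differ little, whether the numbers pair the libraries cannot be told. Of 212 named genes with a call, 62 lost it at the 2-fold threshold, 66 with the CCND2wt libraries summed and up to 9 under any other setting. The log2 fold change of Ccnd3 ran from -0.11 to 0.052 over the libraries left out and was 0.00442 without chromosomes 6 and 15. That of Cdkn2a ran from -0.74 to 0.37 over the libraries left out, and was -0.24 in limma-voom, -0.0187 with no filter and -0.00536 with the CCND2wt libraries summed. The cause was not tested. Depth limits the near-silent genes: 0 counts allow up to 0.2 CPM in CCND2mut 2.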

Other observations

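Of the heat shock chaperones, 9 of 21 tested members rose and 1 fell (summed, 0 and 0), with summed levels of 5966, 6491 and 6063 CPM in CCND2wt and 6656, 13246 and 7552 CPM in CCND2mut, where library 2 held the most. Without CCND2mut 2, 5 chaperone genes rose, and without CCND2wt 2, 3 or 4, 3 or 4 did. Of the lysosome genes, 13 of 32 tested members rose and 3 fell (summed, 3 and 0) and 16 were within 2-fold, and 8 rose without CCND2mut 2 or any 1 CCND2wt library. With CCND2mut 3 or any 1 CCND2wt library left out 0 lysosome genes fell, and 5 fell without CCND2mut 2. The sialidase Neu1 rose by 2.18, the cathepsin Ctsz by 2.21 and the glucuronidase Gusb by 1.54. Called shares were 47.6% for chaperones, 50% for lysosome genes and 13.6% for haem synthesis and iron, against 47.0% of all tested genes. In haem synthesis and iron handling, 3 of 22 tested members rose and 0 fell (summed, 1 and 0) (4 and 3 without Vec 1), with a rise of 3.52 for Alas1, the first enzyme of haem synthesis in all tissues.

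Adhesion genes changed in both directions. Of this list, 13 of 28 tested members rose and 8 fell (summed, 2 and 5). Itgal, the alpha chain of LFA-1, rose by 1.63, while the integrin chain Itga9 fell by 1.9 and the junction protein Esam, which also marks stem cells, fell by 6.72. Icam2, a ligand of LFA-1, was within 2-fold (log2 fold change -0.13, 95% interval -0.36 to 0.09). Of the dendritic cell markers, 3 of 10 tested members rose and 4 fell (summed, 0 and 2), with 1 rise without CCND2wt 4, and of the plasma cell markers, 2 of 12 tested members rose and 1 fell (summed, 1 and 0), at summed levels of 165, 195 and 159 CPM in CCND2wt and 446, 329 and 248 CPM in CCND2mut. With CCND2mut 2, CCND2mut 3 or any 1 CCND2wt library left out, 1 plasma cell marker rose. The called share of the plasma cell list was 25%, against 47.0% of all tested genes.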
